A study of Mus musculus with 12 samples.

Results

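Elane, Mpo, Prtn3, Ctsg, Ltf, Camp, Ngp, Lcn2, Padi4 and Cd177 are genes of the neutrophil granules and of the enzymes and receptors that act with them. They were taken by name from the gene tables of both cell types, where each had 1 row, and make up 10 of the 52636 genes counted. The question was how the neuropeptide CGRP (calcitonin gene-related peptide), which sensory neurons release, changes the RNA of mouse neutrophils and macrophages. Neutrophils isolated from the bone marrow of C57BL/6 J mice aged 8 to 12 weeks were kept for 4 h with 1 nM CGRP or with PBS, the saline control. Monocytes from the same tissue were first cultured for 3 days with M-CSF at 10 ng/ml, a growth factor that turns them into macrophages, and then given CGRP or PBS for 4 h in the same way. No genetic change is given for any group, and every macrophage group shared the M-CSF culture. There were 3 libraries in each of the 4 groups and 12 in all. The labels do not say whether replicates came from separate animals, so the spread between them may be technical. The cell types also differed in isolation, medium and days of culture, and these cannot be told apart from cell type.

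Neutrophils carry ready-made proteins in several kinds of granule, which form one after another while the cell matures in the bone marrow. Azurophil (primary) granules form in promyelocytes and hold myeloperoxidase and serine proteases. Specific (secondary) granules form later and hold lactoferrin, cathelicidin and lipocalin 2. The genes of each granule are transcribed mainly at the stage that makes it, so their RNA in marrow neutrophils reflects maturation, while release of the proteins from ripe granules needs no new RNA. The members are described in that order: azurophil genes (Elane, neutrophil elastase; Prtn3, proteinase 3; Ctsg, cathepsin G; Mpo, myeloperoxidase), specific granule genes (Ltf, lactoferrin; Camp, the cathelicidin antimicrobial peptide; Ngp, neutrophilic granule protein, of the cystatin family; Lcn2, lipocalin 2, which binds bacterial siderophores), and finally Padi4 and Cd177. Padi4 encodes a peptidylarginine deiminase that citrullinates histones in extracellular trap formation and is not itself a granule protein. Cd177 encodes a glycoprotein of the neutrophil surface and of specific granules.

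In GRCm38 the genes lie on 7 chromosomes. Prtn3 (chr10:79874476-79883174) and Elane (chr10:79886247-79888215), both on the plus strand, are 3072 bases apart. Ltf (chr9:111019271-111042767), Camp (chr9:109847379-109849617, minus strand) and Ngp (chr9:110419747-110423012) share chromosome 9. The sequences before 4 of the genes are printed below because they place letters bound by the PU.1 and C/EBP families, known regulators of granule genes, beside the gene starts of a protease pair and a specific granule pair. They come from RefSeq, build GRCm38.p6, on the strand of the gene, and end before any base within 250 bases of the RefSeq start that GENCODE places in an exon. Capitals mark GAGGAA (PU.1) and TTNNGNAA (C/EBP), read on both strands.

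Elane, chr10:79886097-79886246: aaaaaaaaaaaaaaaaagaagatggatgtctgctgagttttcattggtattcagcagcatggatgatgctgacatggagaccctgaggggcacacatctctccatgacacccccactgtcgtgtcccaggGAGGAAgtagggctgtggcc
Prtn3, chr10:79879464-79879613: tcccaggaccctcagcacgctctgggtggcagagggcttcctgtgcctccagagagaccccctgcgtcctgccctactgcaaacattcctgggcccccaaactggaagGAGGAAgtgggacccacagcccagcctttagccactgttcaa
Ltf, chr9:111019121-111019270: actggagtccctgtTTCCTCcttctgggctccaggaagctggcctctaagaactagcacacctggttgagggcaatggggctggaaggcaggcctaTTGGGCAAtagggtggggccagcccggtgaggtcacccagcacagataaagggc
Ngp, chr9:110419597-110419746: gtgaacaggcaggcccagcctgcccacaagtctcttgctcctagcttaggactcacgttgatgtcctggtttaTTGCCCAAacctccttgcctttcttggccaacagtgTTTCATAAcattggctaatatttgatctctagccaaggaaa

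In Elane the PU.1 letters began 85 bases before the RefSeq start and in Prtn3 95 bases before it. The Prtn3 stretch lies before the RefSeq start but inside the longer gene that GENCODE draws. Over the 250 bases before each start, GAGGAA was found for 7 of 10 members, against 23.3% of 32851 promoters of the same length. TTNNGNAA was found for 4 of 10, against 36.8%, and TGTGGT (RUNX) for 1 of 10, against 14.0%. The half-site TGACG of the cyclic AMP response element, the sequence bound by CREB downstream of receptors such as that of CGRP, was found for 0 of 10, against 17.8%. The full element TGACGTCA was also found for 0 of 10, against 1.55%. These matches describe letters in a window and say nothing of whether a factor was bound.

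The libraries held 2002559 to 3631989 counts each. Values below are CPM (counts of a gene scaled to a common library size) scaled by TMM within a cell type, and 3 counts correspond to 0.826 to 1.5 CPM of a library. The libraries were primed at the 3′ end of the RNA, so levels are compared between samples for 1 gene and not ordered between genes. In neutrophils the 10 genes together took 7.85%, 8.86% and 7.51% of all counts in the PBS libraries and 8.16%, 7.52% and 7.59% in the CGRP libraries. In macrophages they took 0.00719%, 0.00673% and 0.00619% with PBS and 0.00706%, 0.00791% and 0.00944% with CGRP. Ngp held the most counts of the 10 in every library, with 100578 to 194996 in a neutrophil library and 96 to 157 in a macrophage library.

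**Figure D1:**
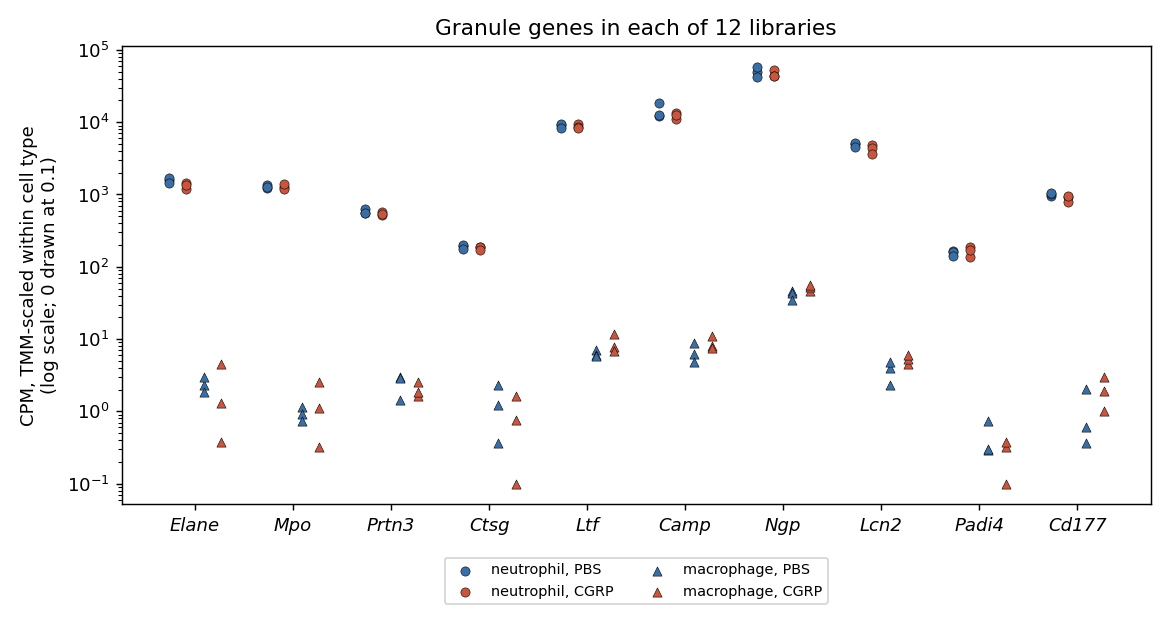
CPM of each gene in all 12 libraries (vertical log axis, TMM-scaled within each cell type, 0 drawn at 0.1), with neutrophils as circles, macrophages as triangles, PBS in blue and CGRP in red. For each gene the circles of both treatments overlap and lie far above the triangles, for Elane at 1182 to 1673 CPM against 0.375 to 4.57 CPM.

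The labels were checked against marker genes. S100a8, the most abundant neutrophil marker, had 106071 to 282168 counts in the neutrophil libraries and 264 to 658 in the macrophage libraries. The complement gene C1qb, the most abundant macrophage marker, reached 4539 CPM over the macrophage libraries and 84.9 CPM over the neutrophil libraries. All 8 neutrophil markers were called higher in neutrophils and all 9 macrophage markers higher in macrophages. The neutrophil libraries also held RNA of other marrow cells: the 8 erythroid markers, with Hbb-bs leading, took 0.593% to 0.685% of counts, the 6 mast cell or basophil markers, with Prss34 leading, 0.0993% to 0.113%, and the 6 eosinophil markers, with Prg2 leading, 0.0589% to 0.0704%. B cell markers took 0.013% to 0.0169%, T or NK cell markers 0.00875% to 0.0134%, and platelet markers 0.0133% to 0.02%. The shares overlapped between PBS and CGRP for each of these lists other than the T or NK cell markers, led by Nkg7, which took 0.011%, 0.0113% and 0.0134% with PBS and 0.0103%, 0.00875% and 0.0109% with CGRP, lower in every CGRP library. Nkg7 held 307 of the 363 counts of its list in PBS replicate 1 and is also counted among the other azurophil granule genes below. Of the 6 T or NK cell markers, 2 had enough counts to be tested. Singly, 1 of these lay lower in every CGRP library, as did 8.83% of all genes tested. No marker of these lists passed the test in CGRP against PBS.

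PBS replicates 2 and 3 lay on opposite sides of their group mean for most of the 10 genes before any comparison. In PBS replicate 2 all 10 genes lay above the mean of the PBS group, by 0.01 (Cd177) to 0.38 (Camp) on the log2 scale, and S100a8 reached 84580 CPM against 61715 and 52505 in the other PBS libraries. In PBS replicate 3, 9 of the 10 lay below the group mean and Cd177 lay 0.06 above it. Elane (-0.13), Ctsg (-0.11), Ltf (-0.097), Lcn2 (-0.093) and Padi4 (-0.15) lay farther from the mean in replicate 3 than in replicate 2. The 10 most abundant genes took 25.7% of the counts of PBS replicate 2, against 22.1% and 21.01% in the other PBS libraries. The CGRP log2 fold changes of the 10 genes in neutrophils are given below with and without PBS replicate 2, and without PBS replicate 3 as a range. Their median and the correlations between genes are given with all libraries only.

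**Figure D2:**
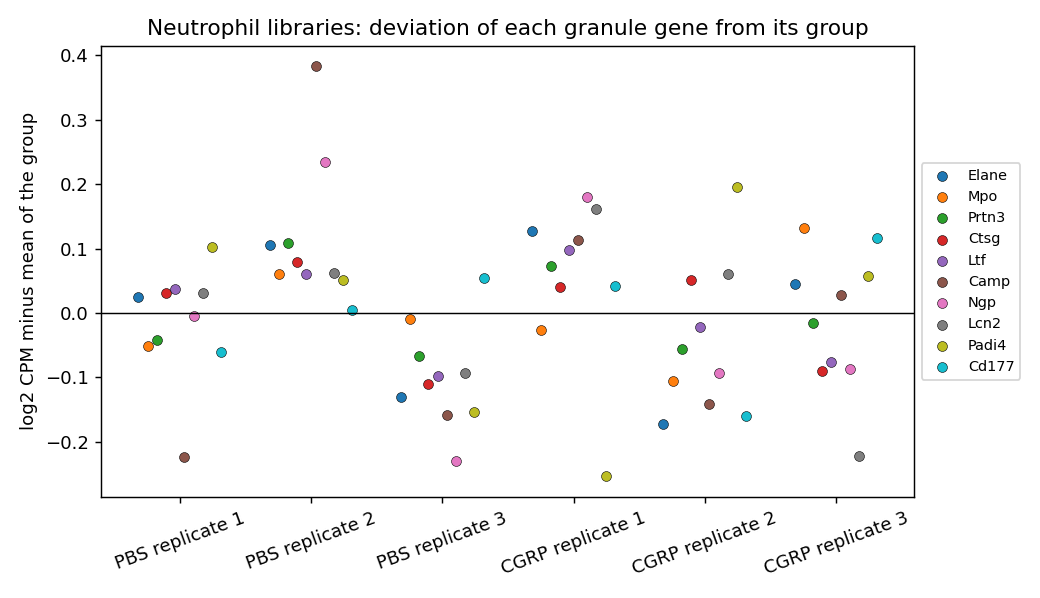
Deviation of each of the 10 genes from the mean of its treatment group (log2 CPM, vertical axis) in the 6 neutrophil libraries (horizontal axis), 1 coloured point a gene. All 10 points of PBS replicate 2 lie above 0, with Camp at 0.38, and 9 of 10 points of PBS replicate 3 lie below 0.

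In neutrophils CGRP left the 10 genes without a call. Limma-voom, with Benjamini-Hochberg adjustment over 9819 genes and a threshold of 0.05, called 248 genes (2.53%), of which 148 rose and 100 fell, and 0 of the 10 were among them. With all libraries their log2 fold changes ran from -0.22 (Elane) to 0.04 (Padi4), with 9 of 10 below 0. Their median was -0.08, against a median of 0.00 over all genes tested. Without PBS replicate 2, Elane (-0.18), Lcn2 (-0.16) and Cd177 (-0.18) were the lowest. The other genes then lay between -0.034 (Camp) and 0.065 (Padi4), with Mpo, Ngp and Padi4 above 0. Without PBS replicate 3 the 10 genes ran from -0.30 (Camp) and -0.29 (Elane) to -0.014 (Mpo), with Padi4 at -0.031. At an unadjusted p under 0.05 there were 2 of the 10, Elane and Cd177, and 1257 of the 9819 genes. The 3 CGRP libraries overlapped the 3 PBS libraries for every one of the 10, whereas the groups did not overlap for 17.8% of all genes tested. EdgeR's quasi-likelihood test and DESeq2 also called 0 of the 10. With no filter on low counts, which raised the genes tested to 20348, limma-voom called Elane (adjusted p = 0.00487), Camp (adjusted p = 0.0146) and Lcn2 (adjusted p = 0.00828) lower. The number of genes called overall fell from 248 to 138 without PBS replicate 1, to 138 without PBS replicate 2 and to 153 without CGRP replicate 2.

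Among the azurophil genes, Elane had 1583, 1673 and 1421 CPM in the PBS libraries and 1455, 1182 and 1374 CPM in the CGRP libraries. The highest CGRP library exceeded the lowest PBS library, so the groups overlapped, although the means were 1559 ± 128 and 1337 ± 140 CPM (SD, n = 3 each). The log2 fold change was -0.22 (SE 0.088, 95% interval -0.41 to -0.041, limma-voom adjusted p = 0.247), and it stayed below 0 whichever library was left out, at the nearest -0.14 without CGRP replicate 2. Mpo was nearly level, at 1246, 1345 and 1283 CPM with PBS and 1261, 1194 and 1407 CPM with CGRP. Its log2 fold change was -0.01 (95% interval -0.17 to 0.16), and the highest of the 6 libraries was a CGRP library. Prtn3, the neighbour of Elane on chromosome 10, had 559.8, 621.7 and 550.7 CPM with PBS and 577.1, 528.0 and 542.8 CPM with CGRP. Its groups overlapped and its log2 fold change was -0.07 (95% interval -0.24 to 0.096). Ctsg, a protease encoded beside mast cell protease genes on chromosome 14, had 192, 199 and 174 CPM with PBS and 188, 189 and 172 CPM with CGRP. Its log2 fold change was -0.04 (95% interval -0.23 to 0.15). Elane thus had the interval farthest from 0 of the 4, and the intervals of the other 3 spanned 0. Without PBS replicate 2 the log2 fold changes were -0.18 for Elane, 0.016 for Mpo, -0.022 for Prtn3 and -0.0049 for Ctsg. Without PBS replicate 3 they were -0.29 for Elane, -0.014 for Mpo, -0.11 for Prtn3 and -0.095 for Ctsg. Prtn3 came to -0.11 without CGRP replicate 1.

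Ms4a3, the most abundant of the 6 myeloid progenitor markers and a gene of the same early stage, had 144, 153 and 125 CPM with PBS and 138, 111 and 136 CPM with CGRP, with a log2 fold change of -0.14 (SE 0.11, limma-voom adjusted p = 0.642). The 6 progenitor markers summed to 0.0246%, 0.0239% and 0.0243% of counts with PBS and 0.0229%, 0.0226% and 0.0236% with CGRP. All CGRP libraries lay below all PBS libraries in this sum. Singly, 1 of the 6 did so, as did 8.83% of all genes tested, and 0 passed in limma-voom. Ms4a3 and Prss57 are also counted among the other azurophil granule genes below. The 8 cell division markers summed to 0.117% to 0.125% with PBS and 0.116% to 0.124% with CGRP. The part of progenitor content in the azurophil values was not tested, and in bulk RNA fewer cells of a type cannot be told apart from less RNA per cell.

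None of the specific granule genes passed either. Ltf had 9265, 9420 and 8442 CPM with PBS and 9313, 8578 and 8262 CPM with CGRP. Its log2 fold change was -0.05 (SE 0.081, 95% interval -0.22 to 0.12), and the groups overlapped over most of their range. It was -0.028 without PBS replicate 2 and lay between -0.10 and -0.015 over the fits that left out any 1 library. Camp had 12183, 18547 and 12741 CPM with PBS and 13212, 11076 and 12444 CPM with CGRP. The PBS mean of 14490 ± 3524 CPM was raised by replicate 2 alone, since the other PBS libraries lay within the range of the CGRP libraries (12244 ± 1082 CPM). The log2 fold change of Camp was -0.22 (95% interval -0.47 to 0.029, limma-voom adjusted p = 0.467) with all libraries and -0.03 without PBS replicate 2. It was -0.33 without PBS replicate 1 and -0.30 without PBS replicate 3. Ngp had 49567, 58450 and 42405 CPM with PBS and 53155, 43975 and 44135 CPM with CGRP, and both the highest and the lowest value belonged to PBS libraries. Its log2 fold change of -0.08 (95% interval -0.31 to 0.14) became 0.03 without PBS replicate 2 and -0.20 without PBS replicate 3. Lcn2 had 4964, 5076 and 4556 CPM with PBS and 4764, 4445 and 3656 CPM with CGRP. The lowest value was that of CGRP replicate 3, and the log2 fold change was -0.19 (SE 0.091, 95% interval -0.38 to 0.00043, limma-voom adjusted p = 0.391) with it and -0.08 without it.

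Padi4 was the only member with a log2 fold change above 0. It had 168, 162 and 140 CPM with PBS and 135, 185 and 168 CPM with CGRP, so that both the lowest and the highest library were CGRP libraries. Its log2 fold change was 0.04 (95% interval -0.19 to 0.27), and it turned to -0.07 without CGRP replicate 2 and to -0.03 without PBS replicate 3. Cd177 had 963.5, 1008 and 1044 CPM with PBS and 917, 797 and 965 CPM with CGRP. Only the highest CGRP library reached into the PBS range, by less than 2 CPM over its lowest library, and the log2 fold change was -0.18 (SE 0.083, 95% interval -0.35 to -0.0035, limma-voom adjusted p = 0.374). Without CGRP replicate 2 it was -0.096. Of the last 500 bases of the Cd177 transcript, 40.6% of 31-base words also occur in other genes, most of them in Gm4763, so part of its reads could have been lost or shared in counting. Gm4763 had at most 1 count in any library.

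**Figure D3:**
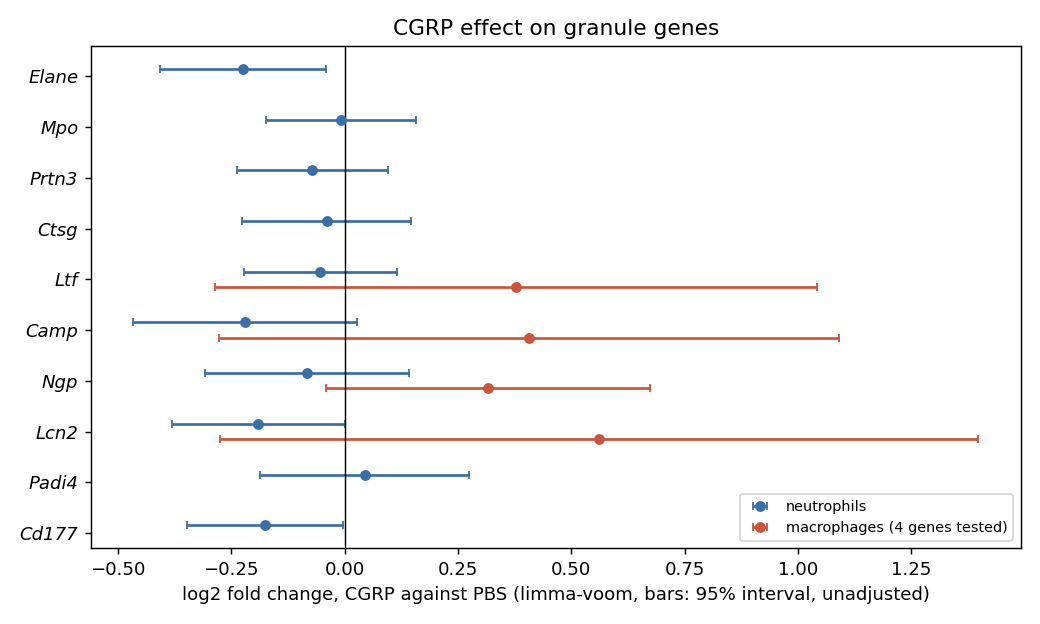
Log2 fold change of CGRP against PBS (horizontal axis) for each gene in neutrophils (blue) and, for the 4 genes tested, in macrophages (red). Points are limma-voom estimates and bars their unadjusted 95% intervals. The neutrophil points lie between -0.22 and 0.04, and the macrophage points between 0.32 and 0.56 with intervals that all span 0.

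Across the 6 neutrophil libraries, after the mean of each treatment was taken out, the 4 azurophil genes correlated with each other at a median Pearson r of 0.44 over 6 pairs (range -0.42 to 0.82). The 4 specific granule genes correlated at a median r of 0.72 over 6 pairs (range 0.23 to 0.91), and the 16 pairs between the classes at 0.68. Elane and Prtn3 had an r of 0.82, Ltf and Ngp 0.91, and Prtn3 and Camp 0.94, so the closest pair crossed the classes. Among 8182 genes with a mean of at least 20 counts, those most like the mean of the azurophil genes included Cdip1 (r = 0.9996) and Anxa2 (r = 0.9986). Those most like the specific granule mean were Rpl37a, Hacd4 and S100a8, with r of at least 0.992. All of these values rest on 6 libraries that share depth and cell composition, and they are descriptions only. The libraries include PBS replicate 2, where every member lay above its group mean, and no correlation without it is given.

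Other granule genes gave a few calls in neutrophils, where 1.51% of all 9819 genes tested were called higher and 1.02% lower. Of 15 other azurophil granule genes tested, Srgn rose and Lyz2 fell. Srgn encodes serglycin, the proteoglycan that binds granule proteases. It went from 930, 1009 and 880 CPM with PBS to 1763, 1432 and 1274 CPM with CGRP, which is 0.65 on the log2 scale (SE 0.098, limma-voom adjusted p = 0.000343), and passed in all 6 fits that left out 1 library. Lyz2, lysozyme, fell by 0.39 on the log2 scale (SE 0.097, limma-voom adjusted p = 0.0296), but passed in only 2 of those 6 fits. It lost its call without PBS replicate 1, PBS replicate 2, CGRP replicate 2 or CGRP replicate 3. It also lost it with edgeR, with a replicate block, and in the single fit over all 12 libraries. The 15 genes had a median log2 fold change of -0.04.

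Of 26 other specific and gelatinase granule genes tested, 2 rose, 4 fell and 20 did not pass, against 1.51% called higher and 1.02% lower over all genes, with a median log2 fold change of -0.15. Lyz2 was counted here too. Adam8, a membrane metalloprotease, rose from 144, 131 and 161 CPM to 223, 235 and 217 CPM, and Dmkn rose from 35.2, 37.5 and 36.0 CPM to 61.8, 63.1 and 68.5 CPM. Their log2 fold changes were 0.64 (SE 0.093) and 0.82 (SE 0.12). Lrg1, a leucine-rich glycoprotein of neutrophil granules, fell from 1250, 1291 and 1226 CPM to 996, 856 and 929 CPM. Cybb, the gp91phox subunit of the NADPH oxidase, fell from 1595, 1603 and 1576 CPM to 1261, 1195 and 1150 CPM. In all 4 genes the groups stood clear of each other. Ceacam10, the next gene above Cd177 on chromosome 7 at a distance of 16894 bases, fell by 0.55 on the log2 scale (SE 0.10, limma-voom adjusted p = 0.00343), from 249, 271 and 218 CPM to 186, 146 and 174 CPM. These 5 genes passed in all 6 fits that left out 1 library.

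Among 9 secretory vesicle and surface genes, Cd14, the lipopolysaccharide co-receptor, rose (log2 fold change 0.79, SE 0.091) and the other 8 did not pass. Over all genes tested 1.51% were called higher. Of 12 granule protease inhibitors tested, 0 passed in limma-voom, with 4 at an unadjusted p under 0.05, as were 1257 of all 9819 genes. The 3 tested genes of the Cd177 surface partners (Itgb2, Pecam1 and F11r) gave 0 calls in limma-voom as well, with 0 at an unadjusted p under 0.05. Of 20 exocytosis and extracellular trap genes tested, Padi4 included, Stx11, a syntaxin of granule release, rose by a log2 fold change of 0.38 (SE 0.093, limma-voom adjusted p = 0.0267) and lost its call whichever of the 6 libraries was left out and in the single fit over all 12.

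Of 19 transcription factors known to act on granule genes, 2 rose and 17 did not pass, against 1.51% called higher over all genes. Trib1, a pseudokinase counted with them because it sets the amount of C/EBPα protein, rose from 25.9, 26.4 and 22.4 CPM to 52.2, 45.8 and 57.9 CPM (log2 fold change 1.03, SE 0.15). Cebpb rose from 94.7, 108 and 136 CPM to 167, 152 and 189 CPM (log2 fold change 0.59, SE 0.12), and lost its call without PBS replicate 1 and in the single fit over all 12 libraries. Spi1, which encodes PU.1 and was the most abundant of the list, had 352, 353 and 352 CPM with PBS and 346, 335 and 318 CPM with CGRP, with a log2 fold change of -0.08 (SE 0.079, limma-voom adjusted p = 0.748).

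**Figure D4:**
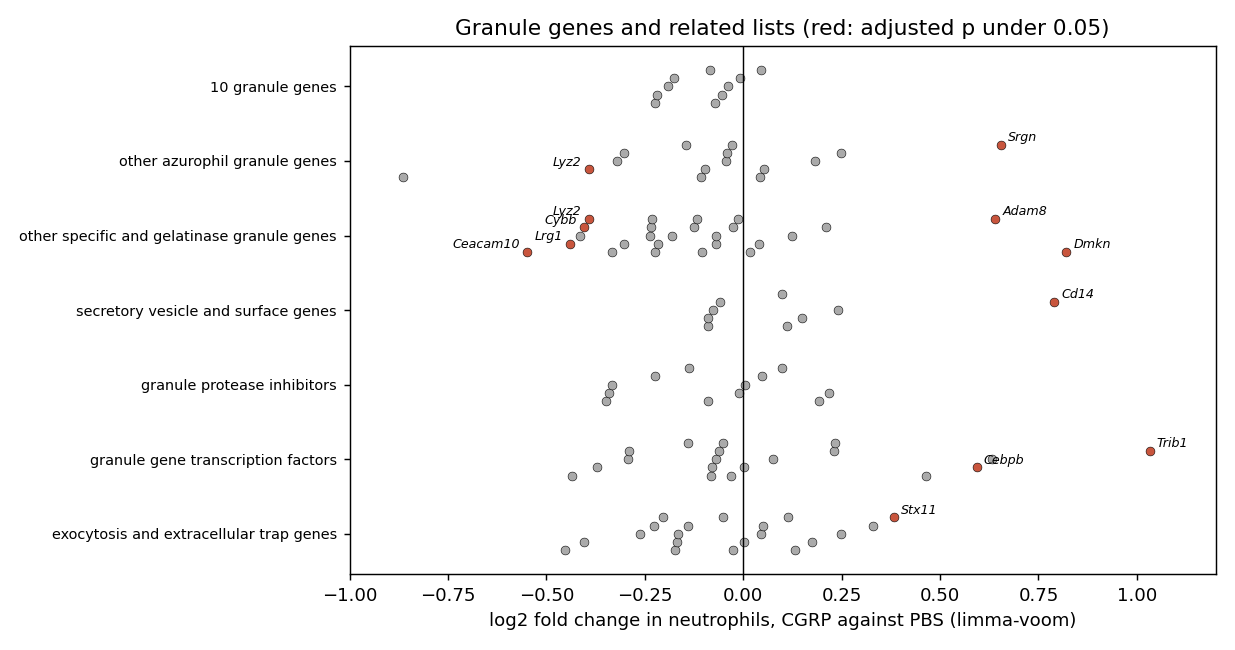
Log2 fold change of CGRP against PBS in neutrophils (horizontal axis) for the 10 granule genes and 6 related lists (rows), 1 point a gene, with genes called by limma-voom in red and named. The 10 granule genes, none of them called, lie between -0.22 and 0.04, while the called genes of the other lists lie between -0.55 and 1.03.

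In macrophages 4 of the 10 genes had enough counts to be tested, Ltf, Camp, Ngp and Lcn2, and 0 of them passed in limma-voom, edgeR or DESeq2. None of the 4 had an unadjusted p under 0.05 in limma-voom. Limma-voom called 698 of 9393 genes (7.43%), and the number fell to 347 without PBS replicate 1, 348 without CGRP replicate 2 and 439 without CGRP replicate 3. Ngp had 45.7, 43.0 and 35.1 CPM with PBS and 46.5, 52.9 and 56.4 CPM with CGRP. Every CGRP library lay above every PBS library, by less than 1 CPM at the closest, and 11.9% of all genes tested showed that order. Its log2 fold change was 0.32 (SE 0.17, 95% interval -0.041 to 0.67, limma-voom adjusted p = 0.321).

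Ltf had 6.99, 6.06 and 5.85 CPM with PBS and 7.70, 6.75 and 11.7 CPM with CGRP, which gave a log2 difference of 0.38 (95% interval -0.29 to 1.04). Camp had 6.11, 8.79 and 4.75 CPM with PBS and 8.02, 7.50 and 11.2 CPM with CGRP, which gave a log2 difference of 0.41 (95% interval -0.28 to 1.09). Lcn2 had 2.33, 3.94 and 4.75 CPM with PBS and 4.49, 5.25 and 6.10 CPM with CGRP, which gave a log2 difference of 0.56 (95% interval -0.28 to 1.40). Each of these 3 overlapped between groups, and each rested on 8 to 29 counts a library. Single libraries moved them: Ltf came to 0.20 without CGRP replicate 3, Camp to 0.23 without PBS replicate 3, 0.27 without CGRP replicate 3 and 0.63 without PBS replicate 2, and Lcn2 to 0.26 without PBS replicate 1. Intervals this wide include a doubling of Ltf, Camp and Lcn2 as well as no difference. Elane, Mpo, Prtn3, Ctsg, Padi4 and Cd177 had 0 to 10 counts in each macrophage library, so that differences in them were not detectable at this depth.

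The sum of the 8 neutrophil markers moved alongside these values in macrophages. Together they took 0.0286%, 0.0324% and 0.0282% of counts with PBS and 0.0377%, 0.0359% and 0.0336% with CGRP, and all CGRP libraries lay above all PBS libraries. S100a8 was their most abundant gene, with 264 to 658 counts a library, and Ly6g, the marker that defines the lineage, had 8 counts over the 6 macrophage libraries together. Of the 5 markers tested in macrophages, 0 passed in limma-voom and 2 had an unadjusted p under 0.05, as did 1860 of all 9393 genes tested. Singly, 1 of the 5 lay higher in every CGRP library, as did 11.9% of all genes tested. The 8 cell division markers moved the other way, from 0.0437%, 0.0434% and 0.0335% of counts to 0.0258%, 0.0187% and 0.0156%. Of these 8 markers, 6 were called lower in limma-voom, as were 3.97% of all genes tested. Pcna passed whichever library was left out, and the other 5 passed in 2 of 6 such fits. The part of neutrophil RNA or of dividing cells in the macrophage values of the granule genes was not tested.

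Related lists gave calls in macrophages too, where 3.46% of all 9393 genes tested were called higher and 3.97% lower. Srgn rose from 284, 309 and 275 CPM to 489, 460 and 464 CPM (log2 fold change 0.70, SE 0.12), and 11 of the 12 other azurophil genes tested did not pass. Among the other specific and gelatinase granule genes, Adam8, Slpi and Tcn2 rose, and 13 of 17 tested did not pass. Adam8 rose by a log2 fold change of 0.76 (SE 0.14). Slpi, an inhibitor of neutrophil elastase and cathepsin G and also a member of the inhibitor list, rose from 16.3, 15.5 and 20.8 CPM to 28.6, 29.2 and 38.6 CPM (log2 fold change 0.86, SE 0.21, limma-voom adjusted p = 0.0201). Slpi and Tcn2 each passed in 2 of 6 fits that left out 1 library and lost their calls without PBS replicate 1, PBS replicate 2, CGRP replicate 2 or CGRP replicate 3. Cd14 and Fcgr3 rose among 8 surface genes, and Cebpb and Cebpd among 12 transcription factors, against the 3.46% called higher over all genes. Cd14, Cebpb and Adam8 passed in all 6 fits that left out 1 library. Fcgr3 and Cebpd passed in 1 of 6, Fcgr3 only without PBS replicate 2 and Cebpd only without CGRP replicate 1. Tcn2 and Cebpd also lost their calls without TMM.

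The difference between the CGRP effects of the cell types was tested in 1 fit over 12 libraries. Of 10694 genes, 252 (2.36%) passed in limma-voom, 149 without macrophage PBS replicate 1, and Ltf, Camp, Ngp and Lcn2, the 4 granule genes with enough counts in both cell types, did not. None of the 4 had an unadjusted p under 0.05 in limma-voom, and edgeR and DESeq2 called 0 of them. For Ngp the macrophage effect exceeded the neutrophil effect by 0.41 on the log2 scale (95% interval -0.045 to 0.86, limma-voom adjusted p = 0.459). The differences for Ltf, Camp and Lcn2 were 0.44 (95% interval -0.22 to 1.09), 0.63 (95% interval -0.27 to 1.54) and 0.76 (95% interval -0.15 to 1.66). Leaving out 1 library gave 0.26 to 0.58 for Ltf, 0.44 to 0.87 for Camp and 0.43 to 0.94 for Lcn2. The other 6 genes entered this fit through their neutrophil counts, and with 0 to 10 counts in each macrophage library a difference between their effects was not detectable.

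The contrast of cell types was large. In PBS neutrophils against PBS macrophages each of the 10 genes was called higher in neutrophils, as were 35.4% of 10694 genes, and every neutrophil library lay above every macrophage library, as it did for 36.6% of genes. The members were chosen as neutrophil genes and 6 of them passed the filter through neutrophils alone, so the direction is a description. For the 4 with enough counts in both cell types the log2 fold changes were 10.27 (Ngp, SE 0.16), 10.44 (Lcn2, SE 0.32), 10.49 (Ltf, SE 0.23) and 11.12 (Camp, SE 0.32), and Ngp had the smallest p of all genes tested. Both neutrophil groups lay far above both macrophage groups for each gene, and within a cell type the libraries of PBS and CGRP overlapped for each gene, except for Ngp in macrophages.

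Taken over both treatments, the macrophage level was 0.056% of the neutrophil level for Camp (95% interval 0.047% to 0.067%), 0.082% for Ltf, 0.093% for Lcn2 and 0.094% for Ngp. The azurophil genes were at 0.082% for Mpo, 0.149% for Elane (95% interval 0.105% to 0.205%), 0.392% for Prtn3 (95% interval 0.278% to 0.539%) and 0.624% for Ctsg (95% interval 0.381% to 0.966%). The intervals are exact and cover counting error only. Those of Prtn3 and Ctsg did not overlap those of the specific granule genes, Mpo or Elane, while those of Mpo, Ltf, Lcn2 and Ngp overlapped one another. Cd177 was at 0.160% and Padi4 at 0.219%, the latter on 6 macrophage counts in all. Among the neutrophil markers Ly6g was at 0.062%, S100a9 at 0.166% and S100a8 at 0.259%, whereas Mmp8, neutrophil collagenase, was at 2.51% and Csf3r, the G-CSF receptor, at 12.6%. The ratios of the granule genes differed from each other beyond counting error, and 7 of the 10 lay between those of Ly6g and S100a8. The part of residual neutrophil RNA in the macrophage levels was not tested. Prtn3 overlaps Plppr3 on the opposite strand, which had at most 35 counts in any library.

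**Figure D5:**
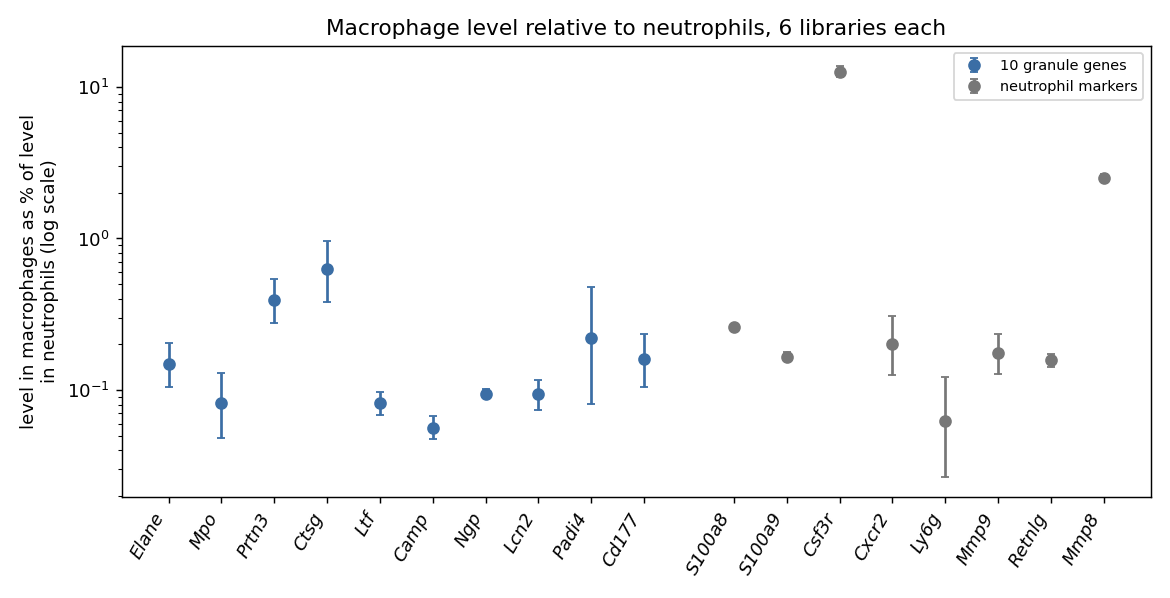
Level in the 6 macrophage libraries as a percentage of the level in the 6 neutrophil libraries (vertical log axis) for the 10 granule genes (blue) and 8 neutrophil markers (grey), with exact 95% counting intervals. The granule genes lie between 0.056% (Camp) and 0.624% (Ctsg), and Mmp8 and Csf3r lie above them at 2.51% and 12.6%.

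The next annotated genes on the chromosome differed widely in their counts. Cfd, complement factor D, lies 2637 bases beyond Elane and had 0 to 3 counts in every library. Lpo, lactoperoxidase, lies 2014 bases beyond Mpo and had 0 counts in each of the 12 libraries. Mcpt8, a basophil protease next to Ctsg, had 866 to 1544 counts in neutrophil libraries and 9 to 19 in macrophage libraries. Ceacam10 had 397 to 904 counts in neutrophil libraries and 0 to 3 in macrophage libraries.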

How the data were processed

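RNA of 12 samples was made into 3′-end libraries primed with oligo-dT and carrying unique molecular identifiers. The authors processed the reads with nf-core/RNAseq, used STAR for alignment (GRCm38) and featureCounts for counting, and deposited raw counts per gene in 1 table for each cell type. The annotation release and the strand setting are not given in the sources used here. The study's methods give limma-voom with TMM and an adjusted p under 0.05. Here genes were kept by filterByExpr (minimum count 10), and limma-voom with TMM (limma 3.58.1, edgeR 4.0.16, R 4.3.3) was fitted within each cell type. Benjamini-Hochberg adjustment ran over all genes tested, with a threshold of 0.05. The interaction and the contrast of cell types used 1 fit over 12 libraries. A gene whose groups do not overlap has every library of one group above every library of the other. Fits were tested on simulated data. The alternatives comprised DESeq2 1.42.0, edgeR's quasi-likelihood test, other scalings and filters, a replicate block, a fit over all 12 libraries and leaving out each library. Correlations used log2(CPM + 0.5). Positions came from GENCODE M21, which held 52403 of 52636 identifiers, and promoters from RefSeq, where 10 of 10 genes matched. The 10 genes were described in every comparison, with up to 4 called genes from each other list by smallest adjusted p in each comparison of CGRP with PBS, the most abundant gene of a marker list, chromosome neighbours, and the 3 genes most like each class. Other genes were named after their values were seen. The genes and lists were chosen with earlier results of these data known. Itgam, with 2 rows, was left out. Some genes that these rules name are not reported here. Totals of 2002559 to 3631989 counts set the precision, and counting intervals are exact at 95%.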

Additional observations from a re-analysis of the deposited data

How the results depend on the processing

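The call of no granule gene in CGRP against PBS held under every alternative run, other than the fit with no filter on low counts in neutrophils, where Elane (log2 fold change -0.25), Camp (-0.25) and Lcn2 (-0.19) passed; the cause was not tested. All 10 stayed higher in neutrophils than in macrophages in each alternative run. Some signs turned. In neutrophils, library totals without TMM gave log2 fold changes of 0.039 for Mpo, 0.016 for Ctsg and 0.0030 for Ltf, all below the median of all genes tested, which moved from 0.00080 to 0.057. Leaving out 1 library gave -0.074 to 0.043 for Mpo, -0.095 to 0.0013 for Ctsg, -0.20 to 0.028 for Ngp and -0.067 to 0.18 for Padi4. In the interaction, where the azurophil genes rest on 0 to 10 counts a macrophage library, Mpo was -0.062 without TMM. Leaving out 1 library there gave -0.48 to 0.78 for Mpo, -1.23 to 0.16 for Elane, -0.52 to 0.044 for Prtn3 and -1.26 to 0.083 for Ctsg. The number of genes called in 1 fit over all 12 libraries was 137 in neutrophils and 1050 in macrophages. Leaving out 1 library gave 138 to 234 calls in neutrophils, 347 to 765 in macrophages, 149 to 328 in the interaction and 6889 to 7559 between cell types. Replicate numbers did not pair the samples: same-numbered libraries correlated at 0.04, -0.01 and 0.13 in neutrophils and 0.06, -0.18 and 0.27 in macrophages. A replicate block gave 289 calls in neutrophils, 1007 in macrophages and 406 in the interaction, against 248, 698 and 252 without it. The block changed no call of the 10 genes, but ended that of Lyz2 in neutrophils. In the interaction the median of all genes tested moved from 0.02 to -0.10 without TMM. The alternatives of the other called genes were added after the data were seen. Depth limited 6 of the 10 genes in macrophages, with at most 10 counts a library.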
